A study of Mus musculus with 20 samples.

Results

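Mug1, Mug2 and Pzp are the mouse alpha-macroglobulin genes that the liver expresses strongly, and all 3 had a row in the deposited table, out of 19572 transcript clusters with a gene symbol and 22206 in all. A transcript cluster is the set of array probes read out together for 1 gene. They were taken by their platform gene symbols, 1 cluster each, with TC0600001374.mm.2 for Mug2, TC0600001373.mm.2 for Mug1 and TC0600003206.mm.2 for Pzp. The family was chosen by the measured values of Mug2, which stood among the lowest clusters of 18 °C against 23 °C offspring, so the group levels and differences of the members are given as descriptions, without a test.

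Liver RNA came from 20 adult male wild-type mice of the inbred strain C57BL/6NCr, aged 4 to 5 months, with 1 array per mouse. The 4 groups of 5 differ in the temperature at which the dam was kept while pregnant, 10, 18, 23 or 30 °C, and 23 °C is the control. Dams were acclimated for 2 weeks at 10 and 18 °C and for 3 weeks at 30 °C before breeding, sires were exposed for 3 days, and all litters lived at 23 °C from the day of birth on standard chow. By its title, the study is about maternal brown fat and how well male offspring handle glucose. The labels name no litter, so mice of a group may be littermates, and the spread between arrays is then too small a measure of error.

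Alpha-macroglobulins are large plasma proteins secreted by hepatocytes that trap proteases. A protease cuts the exposed bait region, the inhibitor closes around it, an internal thioester can bind it covalently, and the receptor Lrp1 on liver cells clears the complex. Mug1 and Mug2 encode murinoglobulins, the single-chain form of rodents, and Pzp encodes the tetrameric form that acts as the main alpha-2-macroglobulin of mouse plasma.

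Mug1 and Mug2 are neighbours on chromosome 6 with 0 measured genes between them, and Pzp lies further along the same chromosome behind 98 measured genes. The start regions of Mug1 and Mug2 are alike, and are printed because the group means of Mug2 lay further apart than those of Mug1. The sequences are from RefSeq (GRCm38.p6), run 5′ to 3′ and end at the first base before the annotated gene. Capitals in the first 2 mark bases that differ from, or are missing in, the other gene.

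Mug2, chr6:122006548-122006728, plus strand: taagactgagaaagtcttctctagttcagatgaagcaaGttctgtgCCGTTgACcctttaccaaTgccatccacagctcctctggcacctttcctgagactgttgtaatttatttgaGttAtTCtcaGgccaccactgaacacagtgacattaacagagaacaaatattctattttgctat

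Mug1, chr6:121838291-121838495, plus strand: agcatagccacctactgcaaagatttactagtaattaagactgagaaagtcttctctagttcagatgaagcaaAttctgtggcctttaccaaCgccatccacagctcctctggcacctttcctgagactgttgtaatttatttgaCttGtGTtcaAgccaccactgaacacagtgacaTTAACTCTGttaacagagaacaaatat

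Over the whole windows of 300 bases, 250 before to 50 after the RefSeq start, Mug1 and Mug2 aligned over 272 columns with 247 identical, 9 mismatched and 16 gapped, an identity of 90.8%. Of each window, 205 bases for Mug1 and 181 for Mug2 lie before the annotated gene, so this identity is not that of the transcripts. Transcript and probe sequences were not used here. Whether the genes share probes was not tested, and the split of signal between Mug1 and Mug2 is uncertain.

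Pzp has an unlike start region, printed with capitals on GTTAAT or its complement ATTAAC, the half-site of the hepatocyte factor HNF1.

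Pzp, chr6:128526721-128526970, minus strand: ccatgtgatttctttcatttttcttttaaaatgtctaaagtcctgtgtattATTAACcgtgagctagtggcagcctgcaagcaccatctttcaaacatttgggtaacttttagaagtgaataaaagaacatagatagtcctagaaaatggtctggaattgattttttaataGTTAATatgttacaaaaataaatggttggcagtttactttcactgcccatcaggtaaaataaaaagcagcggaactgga

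On either strand, GTTAAT occurred 2 times in the Pzp window and 1 time each in those of Mug1 and Mug2, while 7.10% of 32851 RefSeq windows of the same length hold it. The STAT palindrome TTCNNNGAA (8.30% of windows), the IL6 response letters CTGGGAA (11.1%), the C/EBP palindrome TTGCGCAA (0.183%) and TATAAA (13.6%) had 0 matches in the 3 windows. A match to so few letters does not show a bound site, and their absence says nothing of the factor.

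Mug2 was lowest in 18 °C offspring, and the other groups stood in the order 10, 30 and 23 °C. On the log2 scale of the deposited values, the 18 °C mice had 14.18, 14.04, 14.14, 13.81 and 14.11 (animals 1, 3, 4, 5 and 7). The 10 °C mice had 14.42, 14.78, 15.28, 14.58 and 14.59 (animals 2, 4, 5, 6 and 8). All 5 mice of the 18 °C group lay below all 5 of the 10 °C group, in which animal 5 was high. The 23 °C mice had 14.69, 14.84, 15.17, 15.44 and 15.16 (animals 1, 2, 15, 17 and 23). The 30 °C mice had 14.71, 14.98, 15.22, 14.90 and 15.41 (animals 4, 5, 6, 7 and 8). The 23 and 30 °C groups covered nearly the same range and overlapped the 10 °C group, and neither overlapped the 18 °C group.

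Group means of Mug2 were 14.06 ± 0.15 in 18 °C, 14.73 ± 0.33 in 10 °C, 15.05 ± 0.27 in 30 °C and 15.06 ± 0.30 in 23 °C offspring (SD, n = 5). The 18 °C mean was lower than the 23 °C mean by a log2 difference of -1.002 ± 0.17 (limma SE), or 49.9% of the control level. Against 30 °C the difference was -0.99 ± 0.17, and 10 °C offspring exceeded 18 °C offspring by 0.68 ± 0.17, a 1.60-fold difference. The 10 °C mean was -0.33 ± 0.17 from 23 °C and -0.31 ± 0.17 from 30 °C, with overlapping arrays, and 30 °C and 23 °C differed by -0.01 ± 0.17. The 4 groups are each used in 3 of these comparisons, so the differences are not independent of each other.

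**Figure D1:**
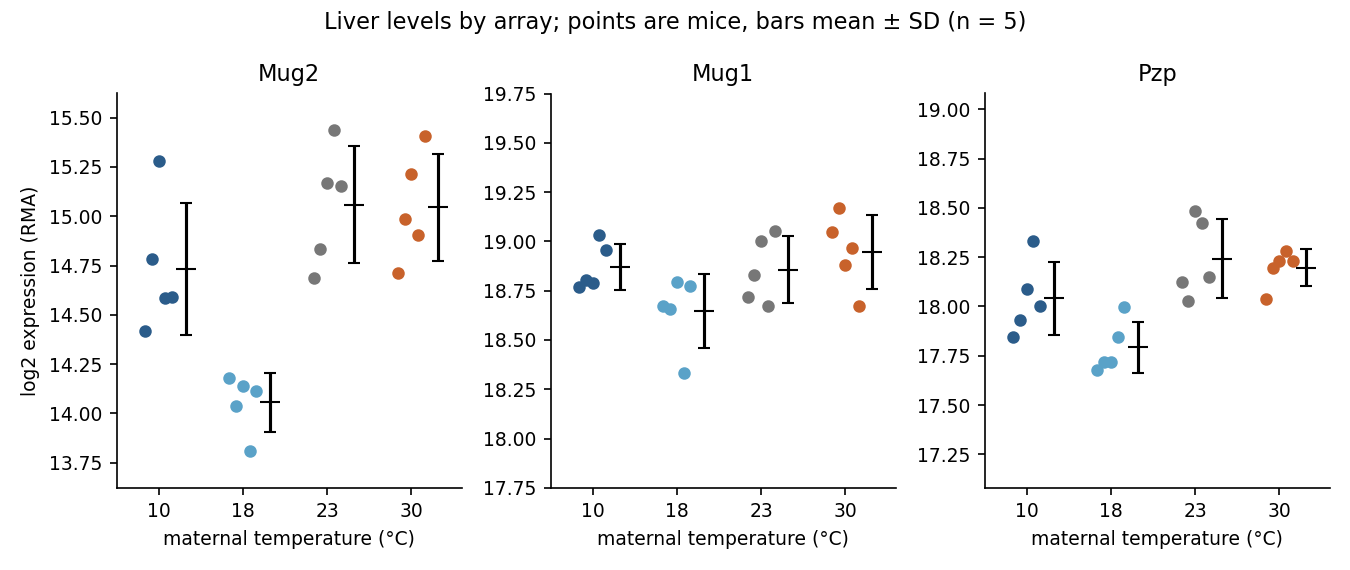
Log2 expression of Mug2, Mug1 and Pzp (vertical axes, each spanning 2 log2 units) by maternal temperature in °C. Points are single mice and bars the mean ± SD of 5; the 18 °C points of Mug2 lie below all other arrays, those of Pzp below the 23 and 30 °C points, and those of Mug1 overlap every group.

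Pzp had the same lowest group with a smaller step. The 18 °C mice had 17.68, 17.72, 17.72, 17.84 and 18.00 (animals 1, 3, 4, 5 and 7), and the 10 °C mice 17.85, 17.93, 18.09, 18.33 and 18.00 (animals 2, 4, 5, 6 and 8). These 2 groups overlapped. The 23 °C mice had 18.12, 18.03, 18.48, 18.43 and 18.15 (animals 1, 2, 15, 17 and 23), and the 30 °C mice 18.04, 18.20, 18.23, 18.28 and 18.23 (animals 4, 5, 6, 7 and 8). Every 18 °C value was below every 23 and 30 °C value, the nearest pair being 18 °C animal 7 (18.00) and 23 °C animal 2 (18.03).

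Means of Pzp were 17.79 ± 0.13 in 18 °C, 18.04 ± 0.19 in 10 °C, 18.20 ± 0.09 in 30 °C and 18.24 ± 0.20 in 23 °C offspring (SD, n = 5). The 18 °C mean differed from 23 °C by -0.45 ± 0.13 (limma SE), or 73.2% of the control level, and from 30 °C by -0.40 ± 0.13. The 10 °C mean stood between, at -0.20 ± 0.13 from 23 °C, -0.16 ± 0.13 from 30 °C and 0.25 ± 0.13 above 18 °C, and 30 °C differed from 23 °C by -0.05 ± 0.13.

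Mug1, whose start region is like that of Mug2, had group means closer together than those of Mug2 or Pzp. Between mice it varied about as much as Pzp, with a within-group SD of 0.17 against 0.16. Mug1 values ran from 18.33 to 18.80 in 18 °C mice (median 18.67), from 18.77 to 19.03 in 10 °C mice (18.81), from 18.67 to 19.05 in 23 °C mice (18.83) and from 18.67 to 19.17 in 30 °C mice (18.96). The groups all overlapped, and 18 °C animal 5 was the lowest array, as it was for Mug2. Means were 18.65 ± 0.19, 18.87 ± 0.12, 18.86 ± 0.17 and 18.95 ± 0.19 at 18, 10, 23 and 30 °C (SD, n = 5). The 18 °C mean differed from 23 °C by -0.21 ± 0.13 (limma SE) and from 30 °C by -0.30 ± 0.13, and was -0.13 from 23 °C without 18 °C animal 5. The 10 °C mean was 0.02 ± 0.13 from 23 °C, -0.08 ± 0.13 from 30 °C and 0.23 ± 0.13 above 18 °C, and 30 °C was 0.09 ± 0.13 above 23 °C. Mug1 and Pzp are among the brightest signals, with 53 and 89 of the 22206 clusters above them and 489 above Mug2. The brightest cluster of an array read 19.83 to 19.93, and whether signals near that limit are compressed was not tested.

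**Figure D2:**
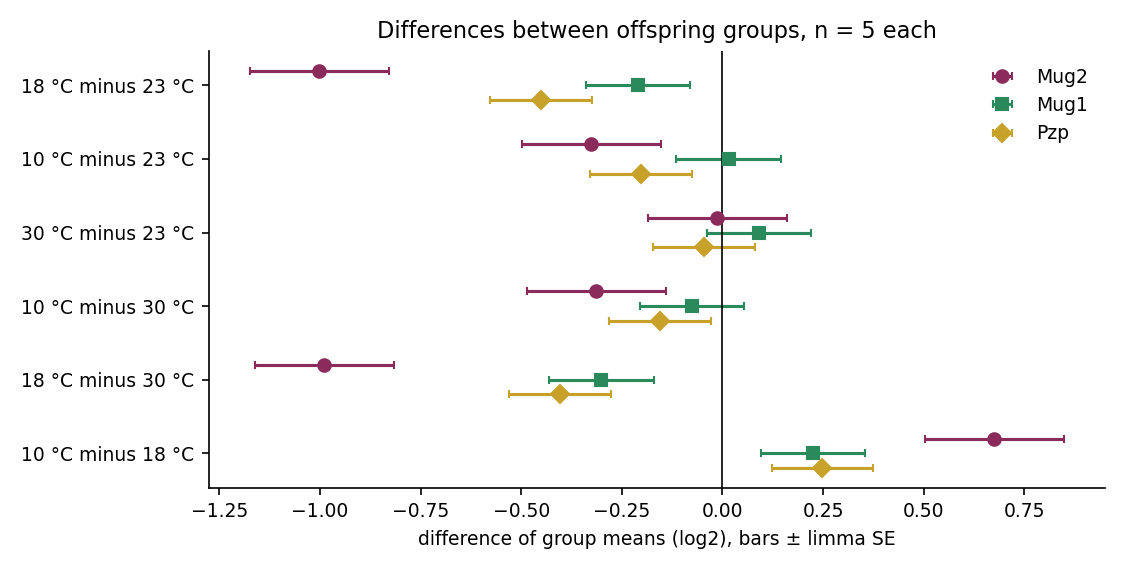
Difference of group means in log2 units (horizontal axis) for 6 pairs of offspring groups, with limma standard errors and n = 5 per group. Mug2 stands at -1.002 and -0.99 where 18 °C is compared with 23 and 30 °C, Pzp at -0.45 and -0.40, and Mug1 at -0.21 and -0.30.

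Set against all clusters, the members' median difference between 18 °C and 23 °C was -0.45, with 3 of 3 lower, where the median of all clusters was -0.0020 and 50.4% were lower. At an adjusted p under 0.05 in limma, the fit to all 22206 clusters called 0 of the 3 members in this comparison, and 0% of all clusters, while 9.25% of all had an unadjusted p under 0.05. Arrays did not overlap, with 18 °C lower, for 2 of 3 members and for 1.04% of all clusters, and with 18 °C higher for 0 of 3 and 0.77%. Since these values chose the family, nothing is read from the counts.

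In the other comparisons the same limma fit called 0 of 3 members, and calls under other settings are given at the end. Of all clusters it called 0.00901% (2 clusters) between 10 and 23 °C, and 0% in the other 4 pairs and in the 4-group F-test. Unadjusted p-values under 0.05 were held by 11.6% of all clusters between 10 and 23 °C, 4.84% between 30 and 23 °C, 6.76% between 10 and 30 °C, 8.21% between 18 and 30 °C and 8.10% between 10 and 18 °C. Unadjusted F-test p-values under 0.05 were held by 9.86%. Non-overlap with 18 °C below 30 °C was found for 2 of 3 members and 0.775% of clusters (above, 0 of 3 and 0.639%), and with 10 °C above 18 °C for 1 of 3 members and 0.752% (below, 0 of 3 and 0.666%). In the other pairs 0 of 3 members were free of overlap, against 1.4% of clusters lower and 1.05% higher for 10 °C minus 23 °C, 0.333% and 0.419% for 30 °C minus 23 °C, and 0.473% and 0.509% for 10 °C minus 30 °C. The members' median was -0.40 for 18 °C minus 30 °C and 0.25 for 10 °C minus 18 °C, where the medians of all clusters were 0.0033 and 0.000893.

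Within groups the 3 genes did not pass a test of moving together. After subtraction of group means, Mug2 and Pzp had r = 0.38 (permutation p = 0.158, adjusted p = 0.443 over 6 relations) and rho = 0.40 (permutation p = 0.120, adjusted p = 0.361) over 20 arrays. Without the 2 arrays farthest from the median of Mug2, r was 0.36 (permutation p = 0.172). Mug2 and Mug1 had r = -0.12 (permutation p = 0.616, adjusted p = 0.825) and rho = -0.03 (permutation p = 0.905, adjusted p = 0.905), with r = -0.19 without 2 arrays. Mug1 and Pzp had r = 0.098 (permutation p = 0.688, adjusted p = 0.825) and rho = 0.11 (permutation p = 0.679, adjusted p = 0.905), with r = 0.25 without 2 arrays. Over all arrays without centring, which includes the group differences that chose the family, r was 0.79 for Mug2 with Pzp, 0.43 for Mug2 with Mug1 and 0.46 for Mug1 with Pzp.

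**Figure D3:**
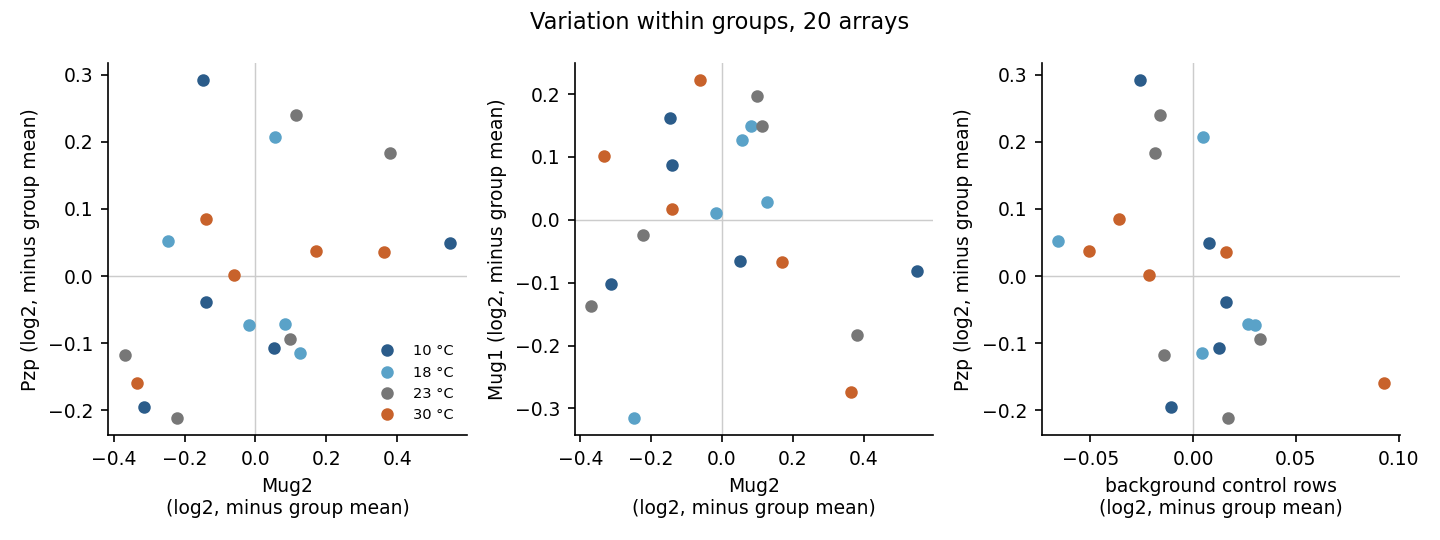
Values minus their group mean, in log2 units, for 20 arrays coloured by maternal temperature, for Mug2 against Pzp, Mug2 against Mug1, and the background control rows against Pzp. The Pearson r are 0.38, -0.12 and -0.48, and none passed at an adjusted p of 0.05 over 6 relations.

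Levels of control rows on the arrays differed between groups too, in opposite directions for 2 kinds of row. The 23 background control rows, which carry no gene, averaged 3.65 ± 0.02 in the 23 °C group and 3.66 ± 0.06 in the 30 °C group, and were higher at 18 °C (3.71 ± 0.04) and 10 °C (3.71 ± 0.02; SD, n = 5). The exact two-sided permutation p was 0.024 for 18 °C and 0.0079, the smallest that 5 against 5 arrays can give, for 10 °C against 23 °C (adjusted p = 0.071 and 0.048 over 6 pairs), and the sign turned when the median over these rows was taken. Within groups this level had r = -0.48 and rho = -0.57 with Pzp (permutation p = 0.012 and 0.010, adjusted p = 0.070 and 0.063), and r = -0.47 without 2 arrays. With Mug2 the background level had r = -0.02 and rho = 0.03 (permutation p = 0.949 and 0.901, adjusted p = 0.949 and 0.905), and with Mug1 r = 0.34 and rho = 0.22 (permutation p = 0.222 and 0.387, adjusted p = 0.443 and 0.775). Without the 2 arrays farthest from its median, r was 0.20 with Mug2 and -0.07 with Mug1. With this level as a covariate the 18 °C minus 23 °C difference was -0.99 ± 0.21 for Mug2, -0.32 ± 0.15 for Pzp and -0.31 ± 0.15 for Mug1 (limma SE).

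The 5222 negative control rows ran the other way, with group means in the same order as those of Mug2. They averaged 4.49 ± 0.07 at 18 °C, 4.53 ± 0.03 at 10 °C, 4.59 ± 0.06 at 30 °C and 4.63 ± 0.09 at 23 °C (SD, n = 5), and the arrays at 18 °C (4.403 to 4.554) and 23 °C (4.549 to 4.747) overlapped slightly. The exact two-sided permutation p was 0.048 for 18 °C and for 10 °C against 23 °C and 0.040 for 18 °C against 30 °C (adjusted p = 0.095 for each over 6 pairs). With this level as a covariate, chosen after the values were seen, the 18 °C minus 23 °C difference was -0.88 ± 0.23 for Mug2, -0.54 ± 0.17 for Pzp and -0.26 ± 0.18 for Mug1 (limma SE).

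The tissue carried the markers of liver. All 8 hepatocyte markers were bright, with a list mean of 18.92 to 19.06 in 18 °C and 18.95 to 19.06 in 23 °C arrays, and 0 of 5 measured pancreas markers were above the median cluster. Kupffer cell markers (9 of 9 measured) averaged 7.20 to 7.92 in 18 °C and 6.70 to 7.57 in 23 °C arrays, and periportal hepatocyte markers (4 of 7 measured) 15.86 to 16.22 and 16.11 to 16.52. Of these 4, Cdh1 averaged 11.74 at 18 °C and 12.70 at 23 °C, while Cyp2f2 (18.60 and 18.62), Hal (16.07 and 16.19) and Hsd17b13 (17.48 and 17.59) lay close together. The part of these cell types in the members' levels was not tested, and in whole liver a smaller share of cells and less RNA per cell cannot be told apart.

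Around the members on chromosome 6, the transcribed pseudogene Gm10319, which follows Mug2 in gene order, had its lowest mean in the 18 °C group too. Its means were 14.20 ± 0.32 in 18 °C, 14.43 ± 0.15 in 10 °C, 14.75 ± 0.12 in 30 °C and 14.80 ± 0.35 in 23 °C offspring (SD, n = 5). The 18 °C mean differed from 23 °C by -0.59 ± 0.17 (limma SE, adjusted p = 0.299), with overlapping arrays, and from 30 °C by -0.545 ± 0.17 (adjusted p = 0.403) without overlap. Of all clusters 0.775% were lower at 18 °C than at 30 °C without overlap. Over 20 arrays Gm10319 had r = 0.72 with Mug2, 0.82 with Pzp and 0.39 with Mug1, and 0.36, 0.60 and 0.068 within groups. It was singled out after its values were seen.

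The other nearest genes did not pass either. On the near side of Mug1, A2m stood at -0.13 ± 0.19 in 18 °C minus 23 °C, Iqsec3 at -0.56 ± 0.18 and Slc6a12 at 0.03 ± 0.19 (limma SE, adjusted p = 0.877, 0.381 and 0.979). After Gm10319 came Klrg1 at -0.37 ± 0.17 and M6pr, a mannose 6-phosphate receptor, at 0.20 ± 0.17 (adjusted p = 0.531 and 0.766). Before Pzp lay Nrip2 (-0.17 ± 0.22), Itfg2 (-0.27 ± 0.17) and the co-chaperone Fkbp4 (-0.03 ± 0.21), and after it A2ml1 (-0.35 ± 0.26), Klrb1a (0.38 ± 0.24) and Clec2h (-0.62 ± 0.59), with adjusted p between 0.666 and 0.981. Of the 98 measured genes between Mug2 and Pzp, 0 were called in limma in any of the 6 pairs. In 18 °C minus 23 °C their median difference was -0.01, 51 were lower, 5 lower and 2 higher had an unadjusted p under 0.05, and 1, Clec4e, was lower without overlap. Of all clusters 50.4% were lower, 9.25% had such a p and 1.04% were lower without overlap.

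**Figure D4:**
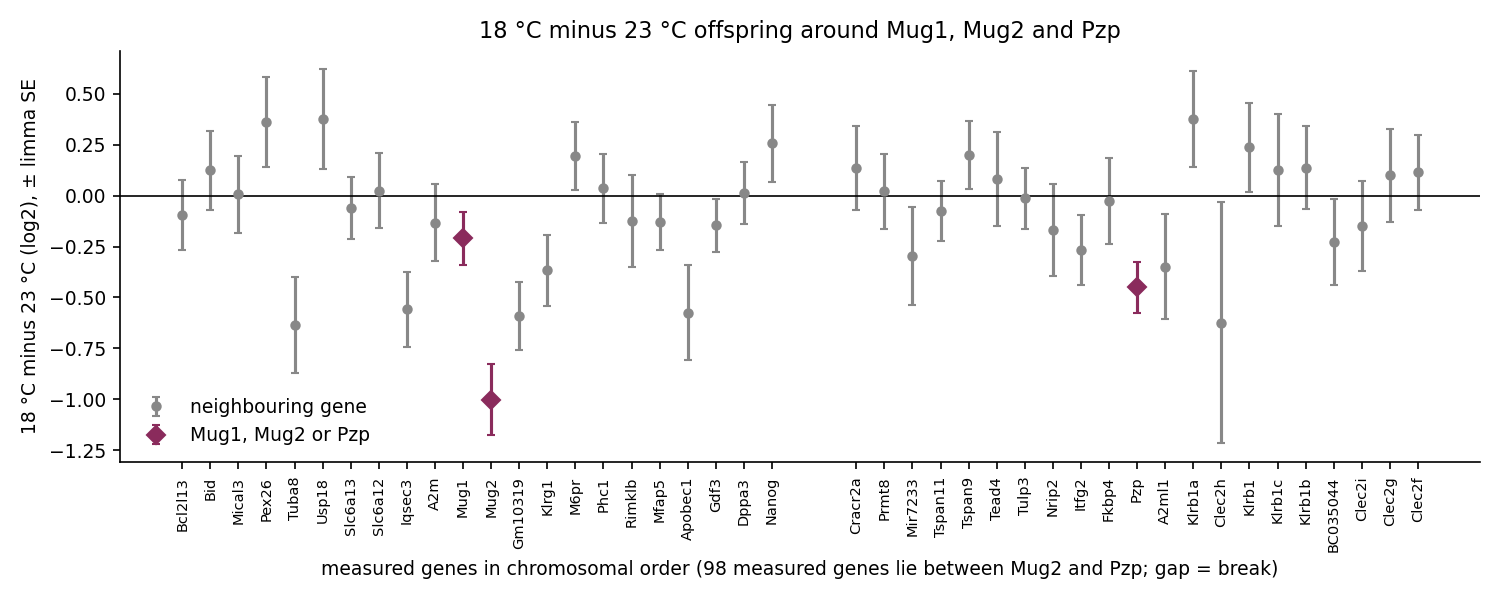
Difference of 18 °C minus 23 °C offspring in log2 units (vertical axis, with limma standard errors) for measured genes in their chromosomal order around Mug1, Mug2 and Pzp. Mug2 stands at -1.002 and the adjacent Gm10319 at -0.59. On the 2 sides of Pzp stand Fkbp4 at -0.03 and A2ml1 at -0.35. The plotted genes that are not members run from -0.64 (Tuba8) to 0.38 (Klrb1a).

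Related genes were taken from 8 lists with 99 genes, 90 of them measured, none a member. The lists hold the thioester family, the macroglobulin receptor and its partners, plasma protease inhibitors, and positive and negative acute phase proteins. They also hold IL6 and STAT3 signalling, growth hormone and STAT5 signalling, and liver transcription factors. In limma 0 of the 90 were called in any of the 6 comparisons, also with an intensity trend and robust variance. At an unadjusted p under 0.05 stood 9 lower and 1 higher in 18 °C minus 23 °C (11.1% of the 90, against 9.25% of all clusters), 14 lower and 0 higher in 18 °C minus 30 °C (15.6% against 8.21%), and 0 lower and 9 higher in 10 °C minus 18 °C (10.0% against 8.10%). In 10 °C minus 23 °C the counts were 3 lower and 4 higher (7.78% against 11.6%). They were 5 and 2 in 10 °C minus 30 °C (7.78% against 6.76%) and 3 and 2 in 30 °C minus 23 °C (5.56% against 4.84%).

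Of the thioester family 6 of 9 genes were measured, and their median in 18 °C minus 23 °C was -0.09. There were 4 lower and 2 higher, and 0 at an unadjusted p under 0.05 in limma. Of all clusters 50.4% were lower and 9.25% had such a p. A2ml1, a member of the macroglobulin family next to Pzp, averaged 10.57 ± 0.26 in 18 °C, 10.50 ± 0.47 in 10 °C, 10.92 ± 0.57 in 23 °C and 11.09 ± 0.44 in 30 °C offspring (SD, n = 5). The low place of the 10 °C mean rests on animal 6, at 9.75 where the other 10 °C mice had 10.35 to 10.83. Without it A2ml1 went from -0.07 to 0.12 in 10 °C minus 18 °C and from -0.42 to -0.23 in 10 °C minus 23 °C. A2m averaged 3.63 ± 0.15 in 18 °C and 3.76 ± 0.26 in 23 °C arrays, under the median cluster (4.41). Hc, complement C5, differed by -0.21 ± 0.16 between 18 and 23 °C (limma SE, adjusted p = 0.744).

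The clearance receptor Lrp1 averaged 13.78 ± 0.16 in 18 °C, 13.90 ± 0.18 in 23 °C, 14.00 ± 0.20 in 30 °C and 14.21 ± 0.19 in 10 °C offspring (SD, n = 5). Its largest difference was 0.43 ± 0.13 for 10 °C minus 18 °C (limma SE, adjusted p = 0.453). Its chaperone Lrpap1 stood at -0.01 ± 0.16 in 18 °C minus 23 °C and -0.12 ± 0.16 in 10 °C minus 23 °C (adjusted p = 0.994 and 0.830). The related receptor Lrp2 was under the median cluster, and the endocytic adaptor Dab2 differed by 0.06 ± 0.18 between 18 and 23 °C (adjusted p = 0.953).

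Other plasma protease inhibitors, 22 of 24 measured, had 20 lower and 2 higher values in 18 °C minus 23 °C, with a median of -0.13 and 5 lower and 1 higher at an unadjusted p under 0.05. Of all clusters 50.4% were lower and 9.25% had such a p. Against 30 °C the 18 °C values were lower for 17 and higher for 5, with a median of -0.19. At an unadjusted p under 0.05 in limma stood 9 lower and 0 higher, with 0 called after adjustment. Of all clusters 49.4% were lower and 8.21% had such a p in this comparison. Serpind1, heparin cofactor II, differed by -0.32 ± 0.11 from 23 °C and -0.40 ± 0.11 from 30 °C (limma SE, adjusted p = 0.397 and 0.352), with no overlap of its 18 and 23 °C arrays (18 °C lower without overlap in 1.04% of all clusters), Serpinf1 by -0.29 ± 0.15 from 23 °C (adjusted p = 0.583) and Itih3, an inter-alpha-trypsin inhibitor heavy chain, by -0.35 ± 0.16 (adjusted p = 0.523). In 10 °C minus 23 °C Serpinf1 stood at -0.54 ± 0.15 (adjusted p = 0.188), the smallest adjusted p of the lists in that comparison.

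**Figure D5:**
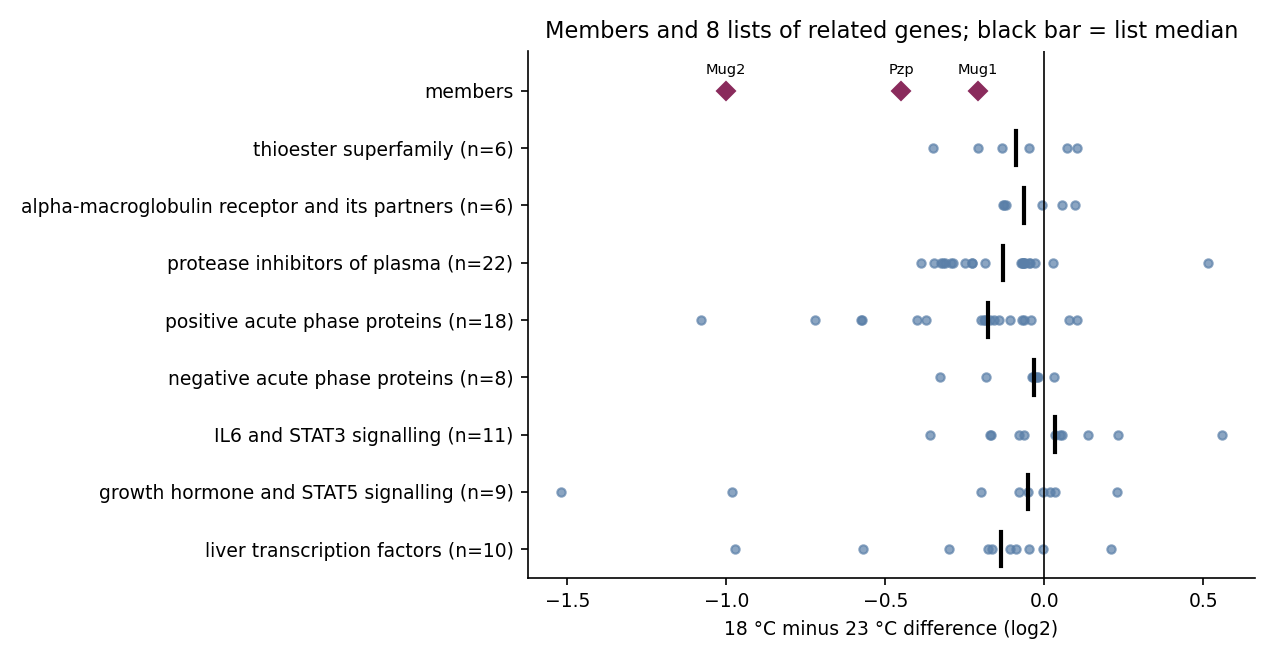
Difference of 18 °C minus 23 °C offspring in log2 units (horizontal axis) for the 3 members and for each measured gene of 8 lists, with the list median as a black bar. Medians are -0.13 for plasma protease inhibitors and -0.18 for positive acute phase proteins, and Mug2 stands at -1.002.

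Positive acute phase proteins, which the liver makes more of in inflammation, had 16 of 18 lower values in 18 °C minus 23 °C. Their median was -0.18, and 3 were lower at an unadjusted p under 0.05 in limma. Of all clusters 50.4% were lower and 9.25% had such a p in either direction. In 10 °C minus 23 °C the median was 0.06, with 7 lower and 11 higher (49.6% of all clusters lower), but 1 mouse decided that direction. Without 10 °C animal 6 the median was -0.14, with 12 lower and 6 higher. That animal had 11.46 for Saa1 where the other 10 °C mice had 6.33 to 8.31, and 19.15 for Hp where they had 18.00 to 18.34. Without it the 10 °C minus 23 °C difference of Saa1 went from 0.57 to -0.24 and that of Hp from 0.19 to -0.01.

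The largest difference of this list between 18 and 23 °C was that of Hamp, hepcidin, the hormone that limits iron uptake, named after its value was seen, at -1.08 ± 0.45 (limma SE, adjusted p = 0.485). Its 18 °C arrays (15.88 to 17.04) overlapped those of 23 °C (16.62 to 18.70). Orm2, an orosomucoid, differed by -0.58 ± 0.24, the copper carrier Cp by -0.40 ± 0.15, haptoglobin (Hp) by -0.19 ± 0.18 and Saa1, a serum amyloid A, by -0.37 ± 0.54 between 18 and 23 °C (limma SE, adjusted p = 0.479, 0.436, 0.796 and 0.878). The 18 °C arrays of Saa1 all lay below those of 23 °C, which held for 1.04% of all clusters. The limma SE pools the spread of all 4 groups. For Saa1 the SD was 1.95 at 10 °C, with animal 6 included, against 0.12 at 18 °C and 0.18 at 23 °C. Negative acute phase proteins (8 of 9 measured) had 7 lower and 1 higher and a median of -0.03, where 50.4% of all clusters were lower. In this list Alb, albumin, stood at -0.04 ± 0.10, Fetub, a fetuin, at -0.18 ± 0.13, the cortisol carrier Serpina6 at -0.33 ± 0.37 and the retinol carrier Rbp4 at 0.03 ± 0.11, with adjusted p between 0.720 and 0.957. Means of Alb, Ttr, Trf, Apoa1 and Ahsg in the 18 and 23 °C groups were 19.83 to 19.91, near the brightest signal of an array. Alb was itself that brightest signal on every array except that of 23 °C animal 15. These genes are all among the 7 lower, with differences from -0.04 (Ahsg) to -0.02 (Apoa1). Most of that count thus rests on signals near the limit, and no direction of the list is read from it. Whether their differences are compressed there was not tested.

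The IL6 and STAT3 route that drives acute phase genes had a median of 0.03 over 11 measured genes in 18 °C minus 23 °C. The receptor Il6ra stood at 0.56 ± 0.29, Stat3 at 0.03 ± 0.21, Il1r1 at -0.17 ± 0.24 and the kinase Jak2 at -0.06 ± 0.16 (limma SE, adjusted p = 0.568, 0.975, 0.872 and 0.937). Il6st, the signalling subunit of the IL6 receptor, was the 1 gene of the list with an unadjusted p under 0.05 in this comparison, at -0.36 ± 0.17 (limma, adjusted p = 0.528), and was named for that after its value was seen. Growth hormone signalling (9 genes) had a median of -0.05, with its receptor Ghr at -0.20 ± 0.12, Stat5a at 0.02 ± 0.19, Stat5b at 0.03 ± 0.14 and Igfals, which carries IGF1 in plasma, at -0.0035 ± 0.23 (adjusted p between 0.665 and 0.998). Its feedback genes Socs2 and Cish, which STAT5 induces, had larger differences with wide spread and were named after their values were seen. Socs2 stood at -1.52 ± 0.98 and Cish at -0.98 ± 1.02 (limma SE, adjusted p = 0.675 and 0.822), with 23 °C arrays from 5.71 to 12.07 and from 3.00 to 8.37. Liver transcription factors (10 of 12 measured) had 9 lower and 1 higher and a median of -0.14, where 50.4% of all clusters were lower. Foxa2, Foxa3 and Nr5a2 stood at -0.30 ± 0.44, -0.05 ± 0.26 and -0.16 ± 0.18 (limma SE, adjusted p = 0.880, 0.972 and 0.839).

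Among 10011 other named clusters above the median, the 5 with the highest Pearson r to Mug2 over the 20 arrays were Serpind1 (r = 0.82), the nuclear protein Pnisr (0.81), Gm4788 (0.80), the ribosomal protein Rps26 (0.80) and complement factor I (Cfi, 0.79), and Pzp came at rank 6. Within groups the r of these 5 fell between 0.46 and 0.68, and that of Pzp was 0.38. Serpind1 and Cfi are secreted by the liver. For Pzp the 5 were complement C8a (r = 0.86), Evi5 (0.84), Rps25 (0.83), the fibrinogen chain Fga (0.83) and Hnrnpl (0.83), with 0.66 to 0.87 within groups. For Mug1 the 5 were the anticoagulant Proc (r = 0.85), Mettl26 (0.83), Acsm5 (0.83), Ddx20 (0.83) and Chsy3 (0.82), with 0.76 to 0.84 within groups. Mug2 stood at rank 964 for Mug1, and Mug1 at rank 813 for Mug2. Rank orders of this kind pick the highest of many correlations and are given without a p. They also include the group differences that chose the family, so the rank of Pzp for Mug2 is no support for a shared course.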

How the data were processed

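The deposited log2 values, 1 per row and array, were made by the authors with RMA (background correction, quantile normalisation, log2 summary) and the Transcriptome Analysis Console, per the submitters' processing notes; versions and genome build are not given in the sources used here. Of 28846 rows, 6640 were control rows and 22206 transcript clusters, of which 19572 have 1 symbol in the platform annotation and 2634 none. Gene order, promoter sequences and symbols came from RefSeq tables (GRCm38.p6), where all 19572 gene identifiers matched. Quantile normalisation hides a shift of all genes, and the number of arrays limits precision. No arrays held identical values (r between arrays 0.987 to 0.993).

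Tests used limma (3.58.1, under R version 4.3.3) on all 20 arrays with 1 mean per group and moderated variances, two-sided, adjusted by Benjamini-Hochberg over all clusters with a threshold of 0.05. The fit was first tested on simulated data. Correlations used 100000 shuffles within groups (SciPy 1.17.1), two-sided; promoters were aligned with Biopython 1.88. Alternatives changed the groups in the fit, variance model, filter, normalisation, covariate and block, or left out 1 array; the negative control covariate and the lists without 10 °C animal 6 were added after the values were seen. The members and lists were chosen with earlier results of these data known.

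Named are the members, the 3 genes of each list with the smallest F-test p, 9 fixed genes, the 5 clusters most like each member and the 3 nearest measured genes. C3 was fixed by name and is not reported, because no row carries the symbol.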

Additional observations from a re-analysis of the deposited data

Results flagged for a closer look

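A single array stood far from the other 4 of its group in 12 of the 188 groups of values examined this way, where chance flags about 1 in 20. The background control rows of 18 °C animal 5 averaged 3.64, against 3.71 for the next array and a highest of 3.74 in its group; Mug2 (13.81) and Mug1 (18.33) were lowest on that array, and its Pzp value (17.84) was not. The same array was high for Cp (17.13, next 16.80) and for Lrpap1 (10.75, next 9.98).

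Animal 6 of the 10 °C group was high for Lrp1 (14.54, next 14.22), Hp (19.15, next 18.34) and Klrb1a (3.35, next 2.70). Animal 4 of the 30 °C group was low for Alb (19.83, next 19.905) and Lrp2 (2.59, next 2.90), and animal 8 of that group was low for Ghr (16.81, next 17.11). Alb was the highest value of every array except that of 23 °C animal 15 (19.923, with a highest of 19.930). Its flag in 30 °C animal 4 is thus also the flag of a low array maximum (19.83). Alb values cannot be told apart from that limit. Serpind1 was high in 18 °C animal 1 (16.71, next 16.59), Klrg1 was low in 18 °C animal 3 (2.10, next 2.32), and Nrip2 was high in 23 °C animal 1 (4.58, next 4.10).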

How the results depend on the processing

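The differences of Mug2, Mug1 and Pzp moved by less than the spread between replicates in all 150 recomputed values of each gene. Mug2 in 18 °C minus 23 °C ran from -1.09 to -0.79 and Pzp from -0.54 to -0.32. Signs turned only in Mug1 for 10 °C minus 23 °C (6 of 25), Mug2 for 30 °C minus 23 °C (9) and Pzp for 30 °C minus 23 °C (1). The related genes stayed at 0 calls in all 168. Animal numbers gave no pairing: of 11 same-numbered pairs 1 correlated above 0.1 (median -0.00041). With the animal number as a replicate block, the 18 °C minus 23 °C differences were -0.79 (Mug2), -0.43 (Pzp) and -0.19 (Mug1), and the clusters called were 0 for 10 °C minus 23 °C, 1 for 10 °C minus 30 °C and 1 for the F-test.

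Clusters called for 10 °C minus 23 °C, 2 as reported, were also 0 with only these groups, an intensity trend, brighter clusters only, quantile normalisation again and the background or negative control covariate. For 10 °C minus 30 °C 1 was called with only these groups or quantile normalisation. The trend gave 3 for 18 °C minus 23 °C, 3 for 18 °C minus 30 °C and 2 for the F-test, and testing only brighter clusters gave 3 for 18 °C minus 23 °C and 3 for 18 °C minus 30 °C. Mug2 was among the clusters called in these pairs with either setting, and in 18 °C minus 23 °C without 10 °C animal 5. Mug1 and Pzp were not called. Since the values of Mug2 chose the family, nothing is read from these calls. Leaving out 1 array gave 0 to 22 for 10 °C minus 23 °C (22 without 23 °C animal 23), 0 to 3 for 18 °C minus 23 °C, 0 to 2 for 10 °C minus 30 °C, 0 to 3 for 18 °C minus 30 °C, 0 to 1 for 10 °C minus 18 °C and 0 to 7 for the F-test. The causes were not tested.

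Without centring, r was 0.79 for Mug2 with Pzp, 0.43 for Mug2 with Mug1, -0.0126 for the background with Mug1 and -0.66 with Pzp. Without 2 arrays it was 0.20 for the background with Mug2 and -0.0691 with Mug1, and 0.00252 with Mug2 after array centring. Leaving out 1 array gave -0.31 to 0.0604 for Mug2 with Mug1, -0.0507 to 0.22 for Mug1 with Pzp, -0.17 to 0.32 for the background with Mug2 and -0.54 to -0.41 with Pzp, which passed without 10 °C animal 2 or 18 °C animals 5 or 7. By the median over control rows the background differed by -0.0192 (18 °C minus 23 °C), -0.0068 (10 minus 23), -0.0081 (10 minus 30), -0.0206 (18 minus 30) and 0.0124 (10 minus 18). Leaving out 1 array gave 0.0552 to 0.0793, 0.0568 to 0.0697, 0.0346 to 0.0704, 0.0358 to 0.0717 and -0.0177 to 0.0063 for these pairs, and -0.0089 to 0.0270 for 30 minus 23. The 10 °C minus 23 °C call of the background ended in all 10 fits without 1 of its own arrays, where the smallest p allowed is larger.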
